A study of Mus musculus with 7 samples.

Results

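The genes described are those of S phase and DNA replication, taken from a list of 36 genes that load, start and run the replication fork, supply its nucleotides, package the new chromatin or switch S phase on. A gene was followed where the array held a probe set annotated to it alone, and the brightest such probe set stood for it, which left 33 of the 36 genes among 12393 genes in all. Gins2, Gins3 and Chaf1a were not analysed here. The levels are log2 microarray signals of blood stem cells sorted from mouse fetal liver at embryonic day 14.5, with 1 array per sample and 7 arrays in all. The TFIIA nc/nc group (TFIIAα-βnc/nc in the labels) held 3 samples from embryos homozygous for an uncleavable form of the large TFIIA subunit, pooled from 2, 2 and 4 embryos for replicates 1, 2 and 3. The wild-type group held 4 samples of 1, 1, 4 and 3 embryos for replicates 1 to 4. Both groups came from crosses of heterozygous parents, so the allele was present in every tissue of the mutant embryos and not only in blood. Cells without lineage antigens and with Sca-1, c-Kit and CD150 on their surface were sorted, then sorted again, and were pooled within a sample, so a value is an average over the cells of 1 or more embryos.

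DNA is copied once per cell cycle in steps that are kept apart in time. In G1 the origin recognition complex, CDC6 and CDT1 place the ring of MCM2 to MCM7 on the DNA. At the start of S phase CDC45 and the GINS complex turn that ring into an active helicase, and the clamp loader RFC puts PCNA on the primed DNA so that the polymerases can run. E2F transcription factors, freed from RB proteins when cyclins D and E activate their kinases, turn on much of this set, so its transcripts are common markers of cycling cells. Stem cells of the fetal liver divide often, whereas most blood stem cells of the adult marrow rest.

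The promoters show the E2F sequence that many of these genes have in common. RefSeq promoters of 300 bases on GRCm38.p6, with 250 bases before and 50 after a start site, were matched to 27 of the 33 genes. Ccne2, Gins1, Mcm4, Pole, Rfc2 and Tipin had no entry in the table. The 8 letter motifs TTTCCCGC, TTTCGCGC, TTTGCCGC and TTTGGCGC were searched on both strands. They can overlap each other, and an overlapping pair was counted as 2. At least 1 of them stood in a promoter of 12 of the 27 genes, 44.4%, against 2.61% of the 27018 genes with a promoter in the table. TTTCGCGC was found in 7 of the genes, TTTCCCGC and TTTGGCGC in 5 each, and TTTGCCGC in 0. A match is a description of the letters and not a binding site, and the windows of Pcna and E2f1 held none. The 3 promoters printed are those of Orc1, Mcm5 and Rfc3. They are shown because their genes were measured in different directions, Orc1 higher and Mcm5 and Rfc3 lower in TFIIA nc/nc, and capitals mark the motifs.

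Orc1 (chr4:108579204-108579503, plus strand): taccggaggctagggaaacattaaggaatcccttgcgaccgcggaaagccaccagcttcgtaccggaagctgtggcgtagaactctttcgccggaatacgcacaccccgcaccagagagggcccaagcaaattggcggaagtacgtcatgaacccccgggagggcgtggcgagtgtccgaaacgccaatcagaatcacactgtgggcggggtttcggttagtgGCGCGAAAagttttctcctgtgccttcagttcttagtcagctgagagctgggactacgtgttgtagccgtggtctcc
Mcm5 (chr8:75109259-75109558, plus strand): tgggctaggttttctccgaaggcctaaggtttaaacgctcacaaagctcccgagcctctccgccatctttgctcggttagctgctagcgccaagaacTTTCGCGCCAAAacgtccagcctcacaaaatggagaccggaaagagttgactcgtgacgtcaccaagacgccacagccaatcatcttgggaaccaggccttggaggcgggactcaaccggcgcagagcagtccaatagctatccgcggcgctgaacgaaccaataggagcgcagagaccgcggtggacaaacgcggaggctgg
Rfc3 (chr5:151651159-151651458, minus strand): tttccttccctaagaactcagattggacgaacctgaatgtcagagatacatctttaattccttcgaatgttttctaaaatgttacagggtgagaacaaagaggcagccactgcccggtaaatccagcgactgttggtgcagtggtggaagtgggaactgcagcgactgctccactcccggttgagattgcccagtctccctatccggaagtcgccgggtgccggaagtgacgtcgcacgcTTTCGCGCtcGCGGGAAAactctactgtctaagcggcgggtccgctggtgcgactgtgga

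The Orc1 window has TTTCGCGC on the minus strand, beginning at base 224 of the window. In the Mcm5 window TTTCGCGC begins at base 98 and overlaps TTTGGCGC of the other strand, which begins at base 102. In the Rfc3 window TTTCGCGC begins at base 241 and TTTCCCGC, on the other strand, at base 251. The 12 genes with a motif had a median difference of 0.03 in log2 signal (range −0.37 to 0.39; here and throughout, TFIIA nc/nc minus wild type), and 8 of them were measured higher. The 15 genes whose windows held none differed by a median of 0.07 (range −0.22 to 0.45), with 11 measured higher. No test was made between these groups.

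Most S phase genes were bright in stem cells of both genotypes. The mean log2 level over the 7 arrays lay between 3.69 for Tyms and 11.3 for Pcna, and 32 of the 33 genes were above the median level of all genes. Brightness depends on the probes as well as on the transcript, so these levels rank no gene against another. The genotype differences were small beside their errors. TFIIA nc/nc arrays averaged higher for 24 of the 33 genes and lower for 9, with a median difference of 0.07 on the log2 scale, a 1.05-fold higher signal, and a range of −0.37 to 0.45. Without wild-type replicate 1 the split was 17 higher and 16 lower, with a median of 0.02. The median was 0.128 without TFIIA nc/nc replicate 1, 0.033 without TFIIA nc/nc replicate 3 and 0.143 without wild-type replicate 4. Over all 12393 genes the median difference was −0.01 and 48.1% were measured higher. Among the 6196 genes above the median level it was 0.03, with 55.0% measured higher.

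None of the 33 genes passed the test of genotype. In limma's moderated fit, with Benjamini-Hochberg adjustment over all genes, their adjusted p-values were 0.946 to 0.999, and 0 of 33 were under 0.05. Of all genes 0.00807% passed, 1 gene in 12393, which is no member. At an unadjusted limma p under 0.05 there was 1 member higher in TFIIA nc/nc, Orc1, against 2.02% of all genes, and 0 members lower, against 2.41% of all genes. This count was 0 without TFIIA nc/nc replicate 2, TFIIA nc/nc replicate 3 or wild-type replicate 3, and 2, Orc1 and Tyms, without wild-type replicate 2. Without wild-type replicate 1 it was again 1, but the gene was Rfc3, lower in TFIIA nc/nc (difference −0.50), and not Orc1. The 3 TFIIA nc/nc arrays all lay above the 4 wild-type arrays for 3 of the 33 genes, Orc1, Mcm10 and Tipin, against 3.23% of all genes, and below them for 0 genes, against 3.07%. The cells were measured in bulk, so the share of cells in S phase and the amount of transcript in each cell cannot be told apart.

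The precision of the comparison bounds the size of a difference. The 95% interval of the limma difference lay within 1 log2 unit of 0, a 2-fold change either way, for 31 of the 33 genes. Mcm5 and Ccne2 were the exceptions. It lay within 0.5 log2 units, a 1.41-fold change, for 17 genes, and it left out 0 for Orc1 alone. The intervals are not adjusted for the number of genes. Arrays of 1 genotype spread little for most members, with a median SD within genotype of 0.17 against 0.25 over all genes and 0.23 over the genes above the median level. In 32 of the 33 genes the 4 wild-type arrays alone spanned more than the genotype difference. Orc1 was the exception. A range of single arrays is commonly wider than a difference of means, and the share over all genes was not computed. The count is therefore a description only.

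**Figure D1:**
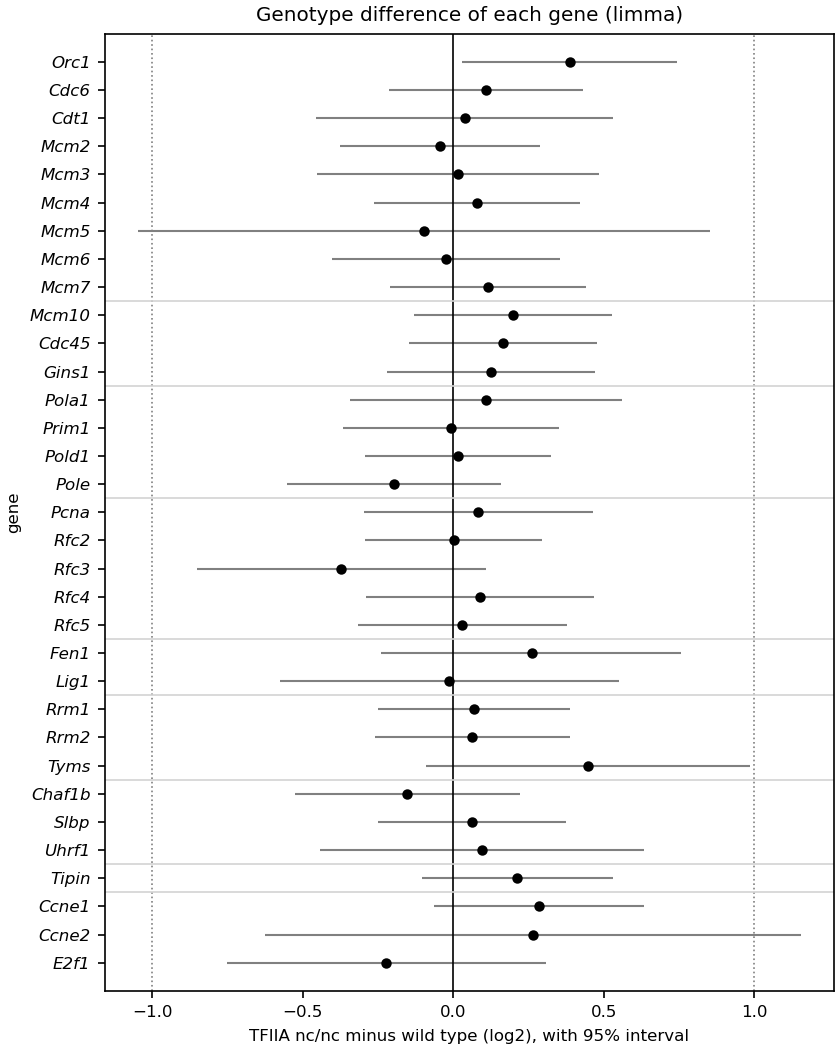
Difference of each of the 33 genes, TFIIA nc/nc minus wild type, in log2 units (x axis), with its 95% interval from limma (bars). Genes run down the page by role, grey lines part the roles and dotted lines mark a 2-fold change. Most points lie near 0, from −0.37 for Rfc3 to 0.45 for Tyms, and only the Orc1 interval leaves out 0.

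Origin licensing was measured through 9 genes, of which TFIIA nc/nc arrays averaged higher for 6 and lower for 3, with a median difference of 0.04. Orc1, the largest subunit of the origin recognition complex and an E2F target, read 4.995, 5.09 and 5.45 in the TFIIA nc/nc arrays, replicates 1, 2 and 3, against 4.67, 4.88, 4.75 and 4.86 in wild-type replicates 1 to 4. The groups did not overlap, and the lowest mutant value lay 0.11 log2 units above the highest wild-type value. The mean was 5.18 ± 0.24 over TFIIA nc/nc arrays (SD, n = 3) and 4.79 ± 0.10 over wild-type arrays (SD, n = 4), 1.31-fold higher (difference 0.39, SE 0.16, limma, Benjamini-Hochberg adjusted p = 0.946). Without TFIIA nc/nc replicate 3 the difference was 0.25. The difference was 0.37 among the 3 arrays rich in endothelial transcripts and 0.62 among the other 4.

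Mcm5, a subunit of the helicase ring, varied most from array to array. It read 5.46, 6.34 and 5.95 in TFIIA nc/nc, against 4.89, 5.82, 6.57 and 6.78 in wild type. Both the lowest and the highest value were wild-type, so the mutant samples lay inside the wild-type range. The mean was 5.92 ± 0.44 over TFIIA nc/nc arrays (SD, n = 3) and 6.01 ± 0.85 over wild-type arrays (SD, n = 4) (difference −0.10, SE 0.42, 95% interval −1.05 to 0.85, limma adjusted p = 0.984). The sign depended on the arrays compared. It was 1.01 among the 3 arrays rich in endothelial transcripts and −0.44 among the other 4. With samples pooled from several embryos alone, the difference was −0.76.

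The other ring subunits differed less. The differences were −0.04 for Mcm2, 0.02 for Mcm3, 0.08 for Mcm4, −0.02 for Mcm6 and 0.12 for Mcm7, and each interval lay within 0.5 log2 units of 0. Mcm6 read 9.67, 9.91 and 9.80 in TFIIA nc/nc, against 9.57, 9.76, 9.80 and 10.1 in wild type. As with Mcm5, its lowest and highest arrays were wild-type replicates 1 and 4. A second Mcm6 probe set of similar brightness differed by −0.20, lowest in TFIIA nc/nc replicate 2 and highest in wild-type replicate 4. In the chosen probe sets of the 6 ring subunits, wild-type replicate 4 was highest for 5 and wild-type replicate 1 lowest for 4. Mcm4 was highest in TFIIA nc/nc replicate 3. The mean over the 6 subunits was 8.74, 9.02 and 9.003 in TFIIA nc/nc, against 8.59, 8.81, 8.99 and 9.26 in wild type. The loading factors Cdc6 and Cdt1, which bring the ring to origins, differed by 0.11 (SE 0.14) and 0.04 (SE 0.22).

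Helicase activation was measured through 3 genes, all higher in TFIIA nc/nc. Mcm10, which helps the helicase to start and recruits polymerase alpha, read 6.22, 6.32 and 6.40 in TFIIA nc/nc, against 6.17, 6.21, 5.89 and 6.196 in wild type. The groups were separated by only 0.01 log2 units. The mean was 6.31 ± 0.09 over TFIIA nc/nc arrays (SD, n = 3) and 6.11 ± 0.15 over wild-type arrays (SD, n = 4) (difference 0.20, SE 0.15, limma adjusted p = 0.946). Cdc45, a core subunit of the active helicase, read 6.19, 6.23 and 6.45 in TFIIA nc/nc, against 6.23, 6.11, 6.10 and 6.07 in wild type. Wild-type replicate 1 lay within the mutant range, and the difference of 0.16 (SE 0.14) did not pass (limma adjusted p = 0.946). Gins1, of the GINS complex, differed by 0.12 (SE 0.15).

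The polymerases and the primase split evenly, 2 measured higher and 2 lower. Pole, the catalytic subunit of the leading-strand polymerase epsilon, read 7.31, 7.76 and 7.47 in TFIIA nc/nc, against 7.54, 7.81, 7.75 and 7.74 in wild type. TFIIA nc/nc replicates 1 and 3 lay below all wild-type samples and replicate 2 among them. The difference was −0.20 (SE 0.16, limma adjusted p = 0.946). Pola1, Prim1 and Pold1, the catalytic subunits of polymerase alpha, the primase and polymerase delta, differed by 0.11, −0.01 and 0.02.

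The sliding clamp did not separate the genotypes. Pcna, the ring that tethers polymerases to DNA, read 11.1, 11.5 and 11.4 in TFIIA nc/nc, against 10.975, 11.3, 11.3 and 11.3 in wild type. TFIIA nc/nc replicate 1 and wild-type replicate 1 were the low samples of their groups. The mean was 11.3 ± 0.23 over TFIIA nc/nc arrays (SD, n = 3) and 11.2 ± 0.18 over wild-type arrays (SD, n = 4) (difference 0.08, SE 0.17, limma adjusted p = 0.972). Among clamp loader subunits, Rfc3 had the most negative difference of all 33 genes. It read 6.16, 6.58 and 6.66 in TFIIA nc/nc, against 6.44, 6.81, 7.25 and 6.85 in wild type. The mutant samples lay below all wild-type samples but replicate 1. The mean was 6.47 ± 0.27 over TFIIA nc/nc arrays (SD, n = 3) and 6.84 ± 0.33 over wild-type arrays (SD, n = 4) (difference −0.37, SE 0.21, limma adjusted p = 0.946). A second Rfc3 probe set of similar brightness differed by −0.10. The partners Rfc2, Rfc4 and Rfc5 differed by 0.00, 0.09 and 0.03, and Rfc2 was the steadiest member, with 7.64 to 7.77 in TFIIA nc/nc and 7.68 to 7.78 in wild type.

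Maturation of Okazaki fragments rests on the flap nuclease Fen1 and DNA ligase 1, Lig1. Fen1 read 10.019, 9.53 and 9.43 in TFIIA nc/nc, against 9.85, 9.34, 9.36 and 9.05 in wild type. The groups overlapped, since wild-type replicate 1 was the second highest of the 7 arrays, and the difference of 0.26 (SE 0.22) did not pass (limma adjusted p = 0.946). Lig1 ordered the arrays differently, lowest at 7.22 in wild-type replicate 1 and highest at 8.23 in wild-type replicate 4, and differed by −0.01 (SE 0.25).

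Among the genes of nucleotide synthesis, all 3 were measured higher in TFIIA nc/nc. Tyms, the thymidylate synthase, had the largest difference of the 33 genes and the dimmest signal. It read 3.97, 3.97 and 3.92 in TFIIA nc/nc, against 3.31, 4.11, 3.01 and 3.57 in wild type. The mutant samples were close together and wild-type replicate 2 lay above them. The mean was 3.95 ± 0.03 over TFIIA nc/nc arrays (SD, n = 3) and 3.50 ± 0.47 over wild-type arrays (SD, n = 4) (difference 0.45, SE 0.24, limma adjusted p = 0.946). This probe set lay near the array medians of 3.69 to 3.82, where the signal says little about the transcript. The 2 other Tyms probe sets, at 2.03 and 2.00, differed by −0.16 and −0.01. Rrm1 and Rrm2, the subunits of ribonucleotide reductase, differed by 0.07 and 0.06.

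Of 3 genes that package the new chromatin, 2 were measured higher and 1 lower in TFIIA nc/nc. Slbp, which binds the ends of histone messenger RNA, differed by 0.06 (SE 0.14), and Chaf1b, of the histone chaperone CAF-1, by −0.15 (SE 0.17). Uhrf1, which guides DNA methylation after the fork, read 8.66, 8.88 and 8.70 in TFIIA nc/nc, against 8.02, 8.62, 8.96 and 9.01 in wild type, with a difference of 0.09 (SE 0.24). Its mutant samples lay inside the wild-type range, as for Mcm5. Tipin, a fork protection factor, read 9.44, 9.53 and 9.54 in TFIIA nc/nc, against 9.22, 9.39, 9.14 and 9.41 in wild type. Its groups did not overlap but were only 0.02 log2 units apart, and the difference of 0.21 (SE 0.14) did not pass (limma adjusted p = 0.946).

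The genes of entry into S phase differed in direction. Ccne1, cyclin E1, read 6.08, 6.15 and 6.42 in TFIIA nc/nc, against 5.74, 5.93, 6.09 and 5.98 in wild type. Wild-type replicate 3 exceeded the lowest mutant sample by 0.01, and the difference was 0.28 (SE 0.15, limma adjusted p = 0.946). Ccne2, cyclin E2, read 5.86, 6.05 and 6.84 in TFIIA nc/nc, against 5.18, 6.003, 5.79 and 6.99 in wild type (difference 0.26, SE 0.40). It was high in 1 sample of each genotype and low in wild-type replicate 1. E2f1, the transcription factor, read 4.52, 4.93 and 4.39 in TFIIA nc/nc, against 5.18, 4.78, 4.30 and 5.08 in wild type. Its groups overlapped, with a difference of −0.22 (SE 0.24, limma adjusted p = 0.948).

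**Figure D2:**
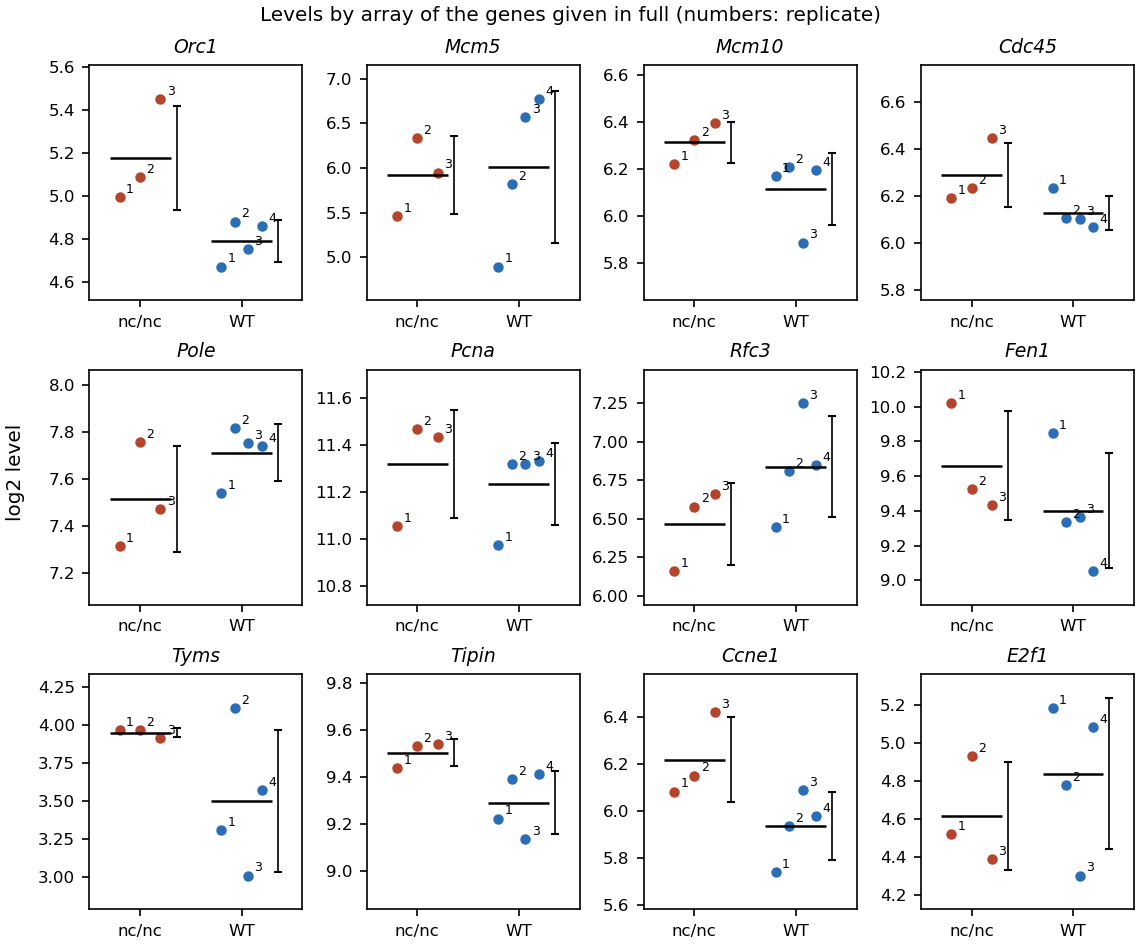
Log2 levels (y axis) of the 12 genes given in full, in the 3 TFIIA nc/nc (red, left) and 4 wild-type (blue, right) arrays, numbered by replicate. Horizontal lines are means and bars are SD. Orc1, Mcm10 and Tipin are the genes without overlap, and Mcm5 spans 4.89 to 6.78 within wild type.

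Single arrays moved many of these differences by over 1.5 times. Without TFIIA nc/nc replicate 1, Fen1 differed by 0.08, Rfc3 by −0.22, Pole by −0.10 and Pcna by 0.21. Without TFIIA nc/nc replicate 2, Pole differed by −0.32, E2f1 by −0.38, Mcm5 by −0.31 and Pcna by 0.01. Without TFIIA nc/nc replicate 3, Ccne1 differed by 0.18, Cdc45 by 0.09, E2f1 by −0.11 and Pcna by 0.02. Without wild-type replicate 1, Fen1 differed by 0.41, E2f1 by −0.11, Mcm5 by −0.47 and Pcna by −0.004. Without wild-type replicate 2, Mcm5 differed by −0.16. Without wild-type replicate 3, Rfc3 differed by −0.23, Tyms by 0.28, Mcm10 by 0.12 and E2f1 by −0.40. Without wild-type replicate 4, Fen1 differed by 0.14 and E2f1 by −0.14. The sign of Mcm5 turned to 0.13, 0.09 and 0.16 without TFIIA nc/nc replicate 1, wild-type replicate 3 and wild-type replicate 4. Tipin was the only one of the 12 genes that no array moved so far.

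Samples of 1 genotype were spread more widely than the genotypes were apart. Single samples commonly spread more than means differ, so this is a description only. Over the 33 genes the median deviation from each gene's mean of 7 arrays was −0.08, 0.05 and 0.11 in TFIIA nc/nc, against −0.16, −0.04, −0.05 and 0.12 in wild type. The lowest and the highest sample were thus both wild-type. Wild-type replicate 4 was the highest array for 13 genes and TFIIA nc/nc replicate 3 for 9. Wild-type replicate 1 was the lowest array for 15 genes, wild-type replicate 3 for 7, and TFIIA nc/nc replicate 1 and wild-type replicate 4 for 4 each.

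**Figure D3:**
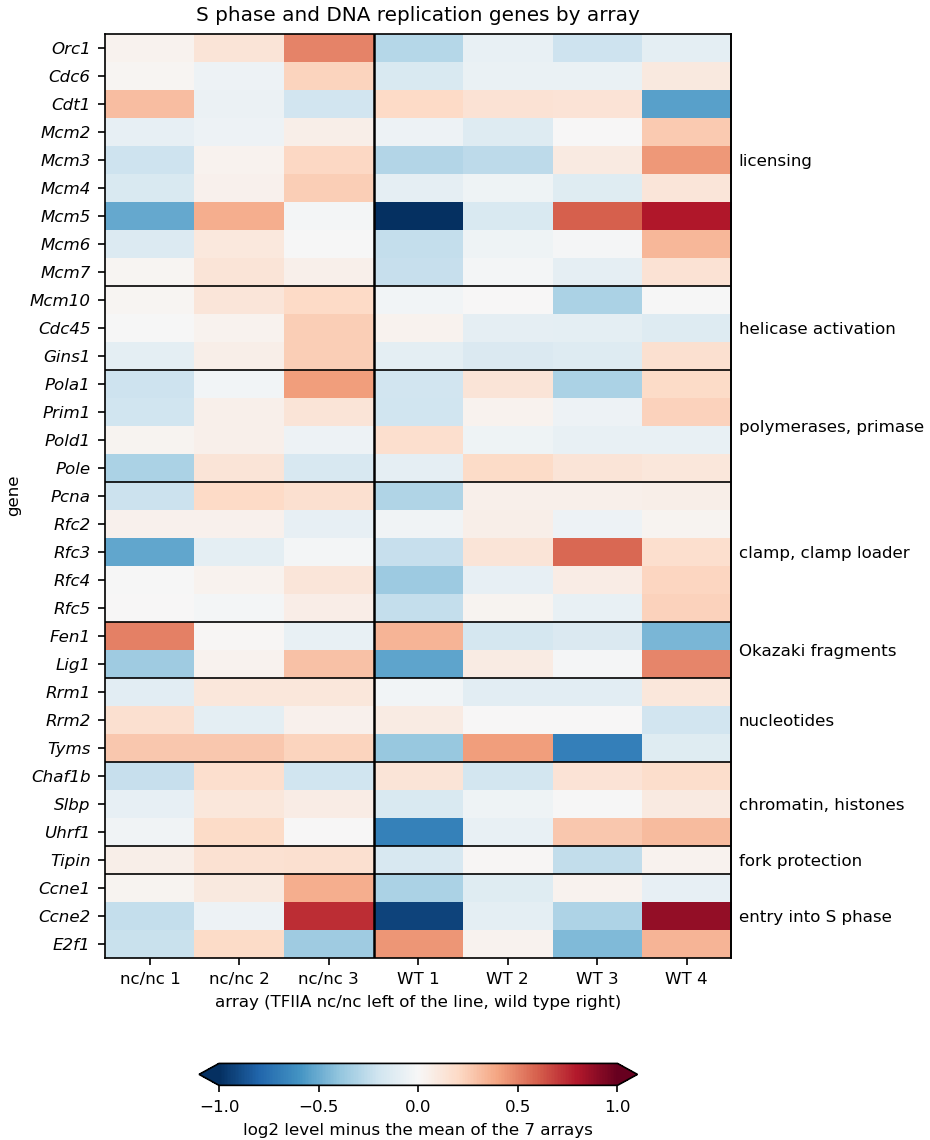
Log2 level of each of the 33 genes (rows, by role) in each array (columns, 3 TFIIA nc/nc left of the line and 4 wild type right), as the difference from that gene's mean over the 7 arrays. Wild-type replicate 1 is the lowest array for 15 genes and wild-type replicate 4 the highest for 13, while Cdt1 and Fen1 are lowest in wild-type replicate 4.

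The sort and the RNA also differed between samples. Of the stem cell markers 8 of 10 were measured, and Ly6a, which encodes Sca-1, was not analysed here. Their mean level was 6.38 to 6.68 in TFIIA nc/nc and 6.55 to 6.90 in wild type, with a median difference of −0.32, 3 of the 8 lower at an unadjusted limma p under 0.05, against 2.41% of all genes, and 0 passing over all genes. Those 3 were Procr (difference −0.77), Hlf (−0.49) and Myct1 (−0.48). In all, 5 of the 8 markers were measured lower and 3 higher. Kit, among the lower, read 7.50 to 8.18 in TFIIA nc/nc and 7.61 to 9.06 in wild type. Slamf1, which encodes CD150 and was among the higher, read 6.23 to 6.92 in TFIIA nc/nc and 6.12 to 6.57 in wild type. All 16 genes of an endothelial list were measured, and their mean level was 6.97, 7.42 and 4.30 for the mutant arrays, against 7.11, 4.30, 4.38 and 4.28 in wild type. The endothelial marker Lyve1 read 9.60, 9.83 and 3.34 in TFIIA nc/nc, against 9.73, 2.91, 3.65 and 2.78 in wild type, high in the same 3 arrays. Of the erythroid genes 9 of 12 were measured, with a mean of 3.53 to 4.07 in TFIIA nc/nc and 3.35 to 4.17 in wild type. Of these 9 genes, 5 averaged below wild type and 4 above it, and the median difference was −0.09. Tfrc, the transferrin receptor that dividing cells also carry, read 7.47, 7.57 and 7.42 in TFIIA nc/nc, against 7.26, 6.71, 6.43 and 6.72 in wild type, without overlap (difference 0.71, SE 0.20, limma adjusted p = 0.946). Klf1 read 5.20 to 6.14 in TFIIA nc/nc and 4.43 to 6.30 in wild type, and Epor 3.97 to 4.64 in TFIIA nc/nc and 3.88 to 5.06 in wild type. The late erythroid genes Alas2 and Hba-a1 were below the array medians in all 7 arrays. The 10 macrophage genes averaged 3.85 to 5.44 in TFIIA nc/nc and 3.63 to 4.82 in wild type. The hepatoblast genes (9 of 11 measured) averaged 5.195, 5.55 and 3.93 in TFIIA nc/nc, against 4.72, 4.04, 3.82 and 4.12 in wild type. They were thus highest in the same 3 arrays as the endothelial genes. At an unadjusted limma p under 0.05, 3 of the 9 were higher, against 2.02% of all genes. At that level 1 was lower, against 2.41%. The lymphoid genes (8 of 9) averaged 3.30 to 3.62 in TFIIA nc/nc and 3.46 to 3.66 in wild type. The granulocyte genes (7 of 8) averaged 4.42 to 4.48 in TFIIA nc/nc and 4.49 to 4.95 in wild type, and the megakaryocyte genes (6 of 7) 4.72 to 4.82 in TFIIA nc/nc and 4.42 to 5.24 in wild type. Apart from the endothelial comparisons given below, the part of these other cell types in the results was not tested. The 3′ minus 5′ signal of the actin control probes, which rises as transcripts are shortened, was 2.95, 2.15 and 2.99 in TFIIA nc/nc, against 2.92, 2.62, 1.93 and 2.12 in wild type. It differed by 0.30 between the genotypes (exact 2-sided permutation p = 0.4, where 35 assignments allow no p below 0.0286). Gtf2a1, the gene that carries the allele, read 5.17, 6.16 and 5.92 in TFIIA nc/nc, against 3.61, 5.27, 3.86 and 5.69 in wild type (limma adjusted p = 0.946). The allele alters a protein site, so these levels check no label.

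The replication genes were compared within arrays alike in endothelial transcripts or in actin signal. The 3 arrays rich in endothelial transcripts were also the highest in hepatoblast genes, so that split does not tell the 2 cell types apart. Among the 3 arrays rich in endothelial transcripts, 2 of TFIIA nc/nc and 1 of wild type, the median difference of the 33 genes was 0.13, with 23 measured higher in TFIIA nc/nc. Among the other 4, 1 of TFIIA nc/nc and 3 of wild type, it was 0.10, with 24 higher. Among the 3 arrays of low actin 3′ minus 5′ signal, TFIIA nc/nc replicate 2 and wild-type replicates 3 and 4, it was 0.04, with 21 higher, and among the other 4 it was 0.13, with 26 higher. Mcm5 read highest in the 3 arrays of low actin signal, at 6.34 in TFIIA nc/nc replicate 2 and at 6.57 and 6.78 in wild-type replicates 3 and 4. Its difference was −0.34 among those arrays and 0.35 among the other 4. E2f1 differed by 0.24 among the arrays of low actin signal and by −0.53 among the other 4. Pole differed by 0.01 and −0.28 in those 2 sets. Among the 3 arrays rich in endothelial transcripts Fen1 differed by −0.08 and Cdc45 by −0.02, and among the other 4 by 0.18 and 0.36. Fits with the endothelial mean or the actin signal as a covariate are given in the closing section. Beyond these, the part of the endothelial transcripts and of the RNA ends in these differences was not tested.

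**Figure D4:**
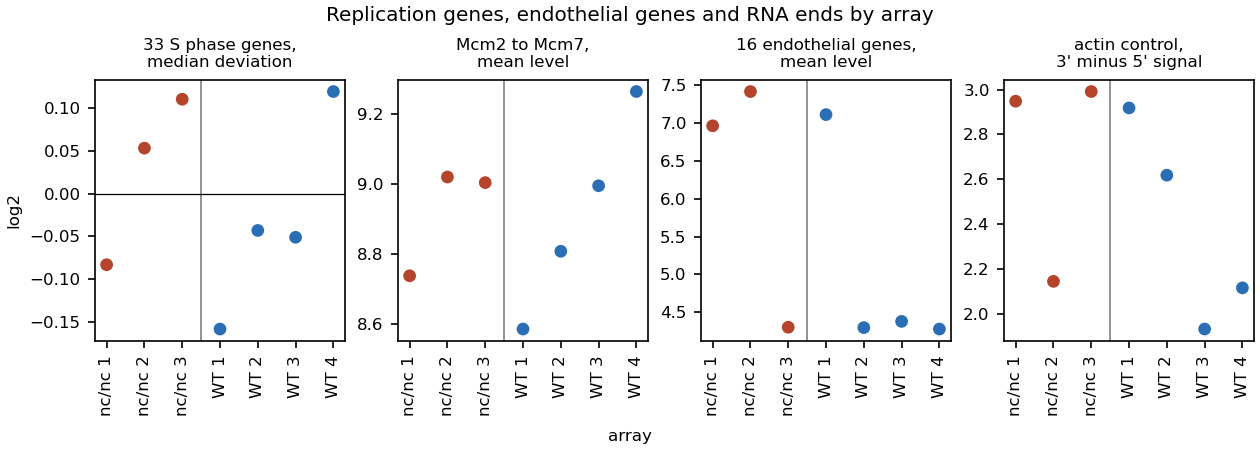
Values by array (x axis, 3 TFIIA nc/nc in red, then 4 wild type in blue) on the log2 scale: the median deviation of the 33 replication genes from their 7-array means, the mean level of Mcm2 to Mcm7, the mean level of 16 endothelial genes, and the actin 3′ minus 5′ signal. The endothelial genes are at 6.97 to 7.42 in 3 arrays and at 4.28 to 4.38 in the others, and the replication genes do not separate the genotypes.

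Probe sets of the same gene did not always order the samples alike. Of the 33 genes, 18 had more than 1 probe set, and 12 had a further probe set with a mean log2 level of at least 5. In 8 of the 12 every such probe set had the sign of the chosen one, and in Mcm2, Mcm3, Mcm7 and Prim1 at least 1 did not, with differences of −0.09 to 0.12. The chosen Cdt1 probe set was highest in TFIIA nc/nc replicate 1, at 10.4, and lowest in wild-type replicate 4, at 9.59. A dimmer Cdt1 probe set was lowest in TFIIA nc/nc replicate 1, at 7.04, and read 7.43 in wild-type replicate 4. The chosen Fen1 probe set likewise read 9.53 in TFIIA nc/nc replicate 2 and 9.85 in wild-type replicate 1, while the other Fen1 set read 8.11 and 7.06. The genotype difference hardly depended on the choice in these genes, at 0.04 and 0.02 for the Cdt1 sets and 0.26 and 0.31 for the Fen1 sets. The 3 Mcm3 sets of at least that level all had wild-type replicates 3 and 4 among their 3 highest arrays.

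**Figure D5:**
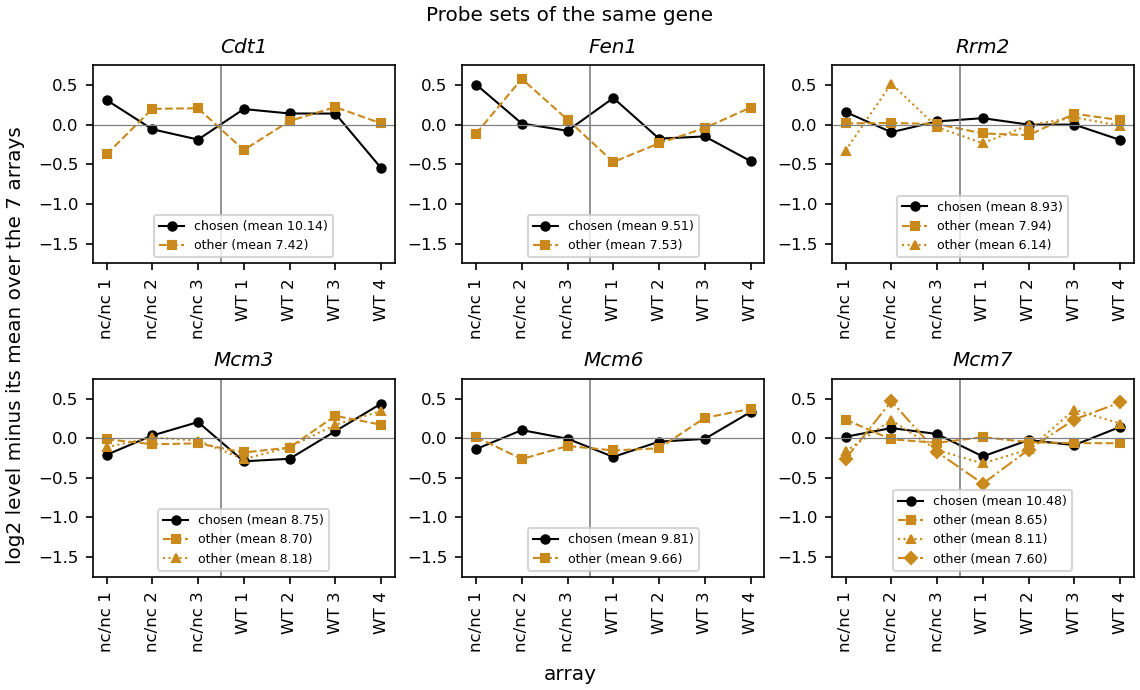
Probe sets of 6 genes with a mean log2 level of at least 5, as the log2 level minus that probe set's own mean over the 7 arrays (y axis), by array (x axis, 3 TFIIA nc/nc then 4 wild type). Black lines are the chosen probe sets and ochre lines the others. The Cdt1 sets and the Fen1 sets run against each other across arrays, while the Mcm3 sets run alike.

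Genes of the same pathway outside the 36 were followed as 6 further lists, with 74 of 90 genes measured. Of these, 57 averaged higher and 17 averaged lower in the mutant arrays, with a median difference of 0.11 and a range of −0.66 to 0.39. The mean level of the 74 genes was 7.15, 7.27 and 7.345 in TFIIA nc/nc, against 7.06, 7.21, 7.13 and 7.29 in wild type. It was lowest in wild-type replicate 1, and the split without that array was not computed. None of the 74 passed the limma test over all genes. At an unadjusted limma p under 0.05 there was 1 of 74 higher, against 2.02% of all genes, and there were 2 of 74 lower, against 2.41%. These counts are near the shares over all genes, and the 3 genes are given as a description. Asf1b, a histone chaperone of the fork, read 7.13, 7.34 and 7.05 in TFIIA nc/nc, against 6.77, 6.94, 6.57 and 6.85 in wild type (difference 0.39, SE 0.15, limma adjusted p = 0.946). All its mutant samples lay above the wild-type samples. Samhd1, which degrades deoxynucleotides, read 7.03, 7.02 and 7.20 in TFIIA nc/nc, against 7.23, 7.77, 7.42 and 7.53 in wild type, and the mutant samples lay below all others (difference −0.41, SE 0.16, limma adjusted p = 0.946). Pold4, a small subunit of polymerase delta, differed by −0.66 (SE 0.26, limma adjusted p = 0.946), with overlapping groups. All mutant arrays lay above all wild-type arrays for 5 of the 74 genes, against 3.23% of all genes. These were Asf1b, Orc6, Nme1, E2f8 and Chek1. They lay below for 1 of the 74, Samhd1, against 3.07%.

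The lists differed in how many genes were measured higher in TFIIA nc/nc. Of 14 further genes of licensing and firing 11 were higher, with a median of 0.09, among them the origin recognition subunits Orc6 at 0.20 and Orc2 at 0.35. Of 18 further replisome genes 16 were higher (median 0.13), among them the polymerase anchor Wdhd1 at 0.29 and the topoisomerase Top1 at 0.36. Of 9 genes of replication-coupled chromatin 8 were higher (median 0.16), with the histone carrier Nasp at 0.26. Of 10 checkpoint genes 8 were higher (median 0.13), with Brca1 at 0.32, Rad1 at 0.36 and the kinase Chek1 at 0.25. Of 13 genes of E2F, RB and the S phase kinases 9 were higher (median 0.16), with E2f8, an E2F repressor, at 0.23. Rb1 differed by −0.46 (SE 0.365), with overlapping groups. It read 3.82, 5.63 and 4.95 in TFIIA nc/nc, against 5.58, 4.95, 5.21 and 5.285 in wild type. Both its lowest and its highest value were thus TFIIA nc/nc. The 10 further genes of nucleotide synthesis divided evenly, with a median of 0.005 and Tk1, thymidine kinase, at −0.30. None of these genes passed the limma test over all genes. Of 19 genes of G2 and mitosis 15 were higher, with a median of 0.13, and 0 passed. Mki67, a general marker of cycling cells that was chosen after its values were seen, read 9.72, 10.1 and 9.57 in TFIIA nc/nc, against 9.76, 9.49, 9.45 and 9.71 in wild type, and differed by 0.19 (SE 0.17).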

How the data were processed

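RNA of sorted stem cells from 3 TFIIA nc/nc and 4 wild-type samples was measured on 1 Affymetrix array each. The deposited values are intensities per probe set on a linear scale, and the submitters' processing notes name RMA and Affymetrix Expression Console, with no version. RMA corrects background, evens out the arrays and summarises probes, and it understates differences of dim probe sets. Log2 was taken with no pseudocount. Arrays correlated pairwise at 0.966 to 0.991. Their number limits the precision.

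The table held 22690 probe sets, and after removal of 64 controls the other 22626 entered a limma 3.58.1 model (lmFit, eBayes; R 4.3.3) of genotype with no covariate. The platform annotation, updated by Entrez identifier with RefSeq names (GRCm38.p6, 12369 of 12393 genes matched), named 1 gene for 20380 probe sets, several for 691 and none for 1555. A gene took its brightest probe set, and the Benjamini-Hochberg adjustment ran over 12393 genes. Values in every array are given for Orc1, Mcm5 and Pcna, the 10 smallest p-values and the 3 highest and lowest differences, and for further genes chosen after their values were seen. The members and lists were chosen with earlier results of these data known. The fit was tested on simulated data. Alternatives covered the probe set, filters, normalization, moderation, weights, covariates, pairing and left-out arrays. The actin covariate was added after seeing the data. Scan dates were not analysed here. Plots used matplotlib 3.10.9 in Python 3.11.15.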

Additional observations from a re-analysis of the deposited data

Results flagged for a closer look

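The 4 wild-type arrays were searched for a sample far from the others in each of the 33 genes and in their median, by the ratio of the gap to the range (Dixon's 95% critical value). For normal values chance alone gives such a sample in about 1 in 20 groups, and 6 of 34 values had one. The share over all genes was not computed. The values come from the same 4 arrays and are not independent, so the count is no result about the members. Wild-type replicate 1 read low for Pcna, at 10.975 with the next sample at 11.32, and high for Pold1, at 8.189 with the next at 7.976. Wild-type replicate 4 read low for Cdt1, at 9.592 with the next at 10.278, and high for Gins1, at 7.816 with the next at 7.555. Wild-type replicate 2 read low for Chaf1b, at 5.3 with the next at 5.617, and wild-type replicate 3 low for Mcm10, at 5.886 with the next at 6.169. The low and high samples differed from gene to gene. The Mcm10 difference was 0.123 without wild-type replicate 3 and the Pcna difference −0.004 without wild-type replicate 1. The groups of 3 mutant arrays are too small for this search.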

How the results depend on the processing

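Over 22 alternatives 0 members passed the threshold, and the median difference of the members stayed above 0, between 0.011 with pooled samples only and 0.154 with the endothelial mean as a covariate. Leaving out each array gave 0.02 to 0.143, and the lowest value came without wild-type replicate 1. Of 260 recomputed differences of the 12 genes, 251 kept their sign and 9 reversed, all in Mcm5 and Pcna. Mcm5 was 0.044 with array weights, 0.22 with the endothelial mean as a covariate, 0.303 with the actin signal as a covariate and 0.156 with the replicate block. Without 1 array Mcm5 ranged from −0.472 to 0.156. Pcna was −0.006 with pooled samples only, and without 1 array it ranged from −0.004 to 0.215. The cause was not tested. The number of genes measured lower was 16 with pooled samples only and 16 without wild-type replicate 1, against 9.

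Members with an unadjusted limma p under 0.05 numbered 0 with trend and robust moderation and with the actin covariate. They also numbered 0 with the filter of log2 6, but that filter left 29 members and removed Orc1 before the fit. They numbered 2 with embryo number as a covariate (Rfc3 and Tyms) and 3 with pooled samples only (Mcm5, Rfc3 and Tyms). With the endothelial covariate there were 3 (Orc1, Ccne1 and Ccne2). Without 1 array there were 0 to 2. The count was 0 when TFIIA nc/nc replicate 2, TFIIA nc/nc replicate 3 or wild-type replicate 3 was absent, and 2 without wild-type replicate 2. Among all genes 1 passed the threshold in the comparison as reported, 0 above the median level, with the filter of log2 6, without moderation and in the arrays of low endothelial transcripts (1 TFIIA nc/nc array, assumed to vary like wild type), 2 with the number of embryos, 3 with pooled samples only, and 1 to 3 without 1 array, with 3 without wild-type replicate 1. The labels do not say that arrays of equal replicate number share a litter, and their deviations from the group means correlated at 0.382, −0.193 and 0.105 for replicates 1, 2 and 3, so the samples were taken to share only a number. TFIIA nc/nc replicate 2 correlated best with wild-type replicate 1, at 0.277. The fit with the replicate block left out wild-type replicate 4. Its median difference was 0.143, the same as without that array alone. With the block 1 member, Ccne2, had an unadjusted limma p under 0.05, and 0 passed the threshold.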
